A study of Homo sapiens with 30 samples.

Results

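The genes examined here are 10 genes of the ATF4 stress response and of serine synthesis, taken by symbol from an RNA-Seq table of 26228 genes. They are the transcription factors ATF4 and DDIT3, the stress effectors TRIB3 and CHAC1, the mTORC1 brakes DDIT4 and SESN2, asparagine synthetase (ASNS), and the 3 enzymes of serine synthesis (PHGDH, PSAT1, and PSPH). All 10 symbols were found, and all 10 were among the 11575 genes that were tested because their FPKM averaged 1 or more across libraries. FPKM are fragment counts divided by transcript length and by the size of the library.

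The libraries came from SH-EP, an established human neuroblastoma (NB) line of mesenchymal identity without MYCN amplification, and from 4 stable SH-EP derivatives that carry a retroviral transgene for WT, T58A, S62A, or T58A S62A MYCN. The amino acid changes remove phosphorylation sites that govern the turnover of the MYCN protein. Each of the 5 lines was grown in the same serum-containing medium and treated for 6 hours with DMSO, the solvent, or with 1 μM CYC065, an inhibitor of CDK9 and CDK2. Each combination had 3 libraries, called a, b, and c here, which makes 30. The transgenes are under an exogenous promoter rather than the promoter of MYCN, each MYCN genotype is represented by a single line, and the labels do not say whether the 3 libraries of a group came from separate cultures. The p values therefore measure the spread between these libraries, which may be technical.

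ATF4 is the effector of the integrated stress response. When kinases that sense unfolded protein, lack of amino acids, double-stranded RNA, or lack of heme phosphorylate the translation factor eIF2, most protein synthesis slows while ATF4 mRNA is translated more efficiently. ATF4 protein then pairs with other bZIP factors and activates genes for amino acid uptake and synthesis, among them those of the serine pathway, which draws carbon from glycolysis toward glycine and one-carbon units, and genes that limit or end the response. MYC proteins are known to bind E-boxes and to act together with ATF4 at genes of amino acid metabolism, and serine synthesis is known for its high activity in MYCN-amplified NB.

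ATF4 protein and its partners bind a composite element with the letters TGATGNAA, and MYC proteins bind the E-box CACGTG. Both were searched on both strands in the RefSeq promoters, from 250 bases before to 50 bases after the start of the gene. These sequences come from a GRCh38 table, which held 9 of the 10 genes (all but PSPH), and each of the 9 was placed by an exact match in GRCh37, the build of the expression data. The composite element was in 1 of the 9 promoters, against 3.62% of all 35116 promoters, and the E-box was in 1 of the 9, against 7.26%. These 2 stretches are shown because they hold the only matches among these genes. The capitals mark the matches, and both stretches are on the plus strand of GRCh37. Positions are counted from the RefSeq start, which for both genes lies downstream of the first base of the gene as given below, the outermost start in GENCODE, so that both matches lie inside the GENCODE gene. The CHAC1 stretch is chr15:41245435-41245492, with the element on the opposite strand at positions -209 to -202. The ATF4 stretch is chr22:39916457-39916512, with the E-box at positions -85 to -80.
CHAC1: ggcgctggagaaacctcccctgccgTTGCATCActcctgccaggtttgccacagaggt
ATF4: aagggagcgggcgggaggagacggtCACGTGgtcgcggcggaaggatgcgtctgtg
A match is a description of letters, and a window without one says nothing about binding of either factor.

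MYCN was listed at 0 FPKM in all 6 SH-EP libraries and was between 5.08 and 15.7 FPKM in the DMSO libraries of the 4 MYCN lines. Its DMSO means differed between lines, at 12.9 (WT), 8.52 (T58A), 5.72 (S62A), and 13.5 FPKM (T58A S62A). Whether this level bears on the differences between lines was not tested. Of the mesenchymal markers, PRRX1, SNAI2, FN1, and VIM were detected in all 30 libraries, whereas the adrenergic markers PHOX2A, HAND1, and DBH were at 0 in 29 or 30 of the 30. The adrenergic marker TH and the blood, epithelial, and endothelial markers PTPRC, EPCAM, and PECAM1 did not exceed 0.969 FPKM in any library. Relative depth, read from the steps between low values, was 0.47 to 1 of the deepest library in DMSO and 0.293 to 0.554 with CYC065. All 6 SH-EP libraries carried an index sequence also used for a library of a MYCN line, so libraries that share an index were not in the same pool. The labels do not name the pools, and whether the pool bears on the step from SH-EP to a MYCN line was not tested.

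Lines were compared in DMSO on FPKM as deposited, which are relative to the total of each library. CYC065 was compared with DMSO on FPKM scaled to the ERCC spike-ins, synthetic RNAs added in proportion to cell number. A value on this scale stands for RNA per cell only if cell counts and spike-in amounts were accurate, which was not tested. The 2 scales gave different answers. Across the MYCN lines against SH-EP the median log2 change of all tested genes was 0.06 as deposited and -1.18 on the spike-in scale, and with CYC065 over the 5 lines it was -1.20 on the spike-in scale and 0.10 as deposited. For the 10 genes the corresponding medians were 0.53 and -0.72 between lines and -1.50 and -0.16 with CYC065. Against SH-EP in DMSO, the spike-in median of all genes was -1.18 (WT), -0.89 (T58A), -1.88 (S62A), and -0.76 (T58A S62A). The scaling factors of 2 libraries stood apart from those of their groups, with WT DMSO library a at 0.72 against 0.17 and 0.35 (log2) and T58A DMSO library b at 0.26 against 0.94 and 0.96. The changes of these genes are therefore given on their main scale, most with the other beside it. Changes are on the scale of log2(FPKM + 0.1), which understates those of low genes. In bulk RNA, fewer cells with a transcript and less of it per cell cannot be told apart.

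In DMSO, 5 of the 10 genes were higher than in SH-EP in all 4 MYCN lines, against 19.2% of all tested genes. These were TRIB3, DDIT4, PSAT1, PSPH, and SESN2. None of the 10 was lower in all 4, against 13.4%. On the spike-in scale, none of the 10 was higher in all 4 lines, against 0.285% of genes, and PHGDH alone was lower in all 4, against 67.7%. By line and on FPKM as deposited, 6 of the 10 were higher in WT (31.6% of all genes), T58A had 9 (30.9%), S62A had 6 (31%), and T58A S62A had 7 (31.2%). None was lower in WT, T58A, or S62A, against 22.6%, 23.3%, and 23.4% of all genes, and PHGDH was lower in T58A S62A, against 24.1%.

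**Figure D1:**
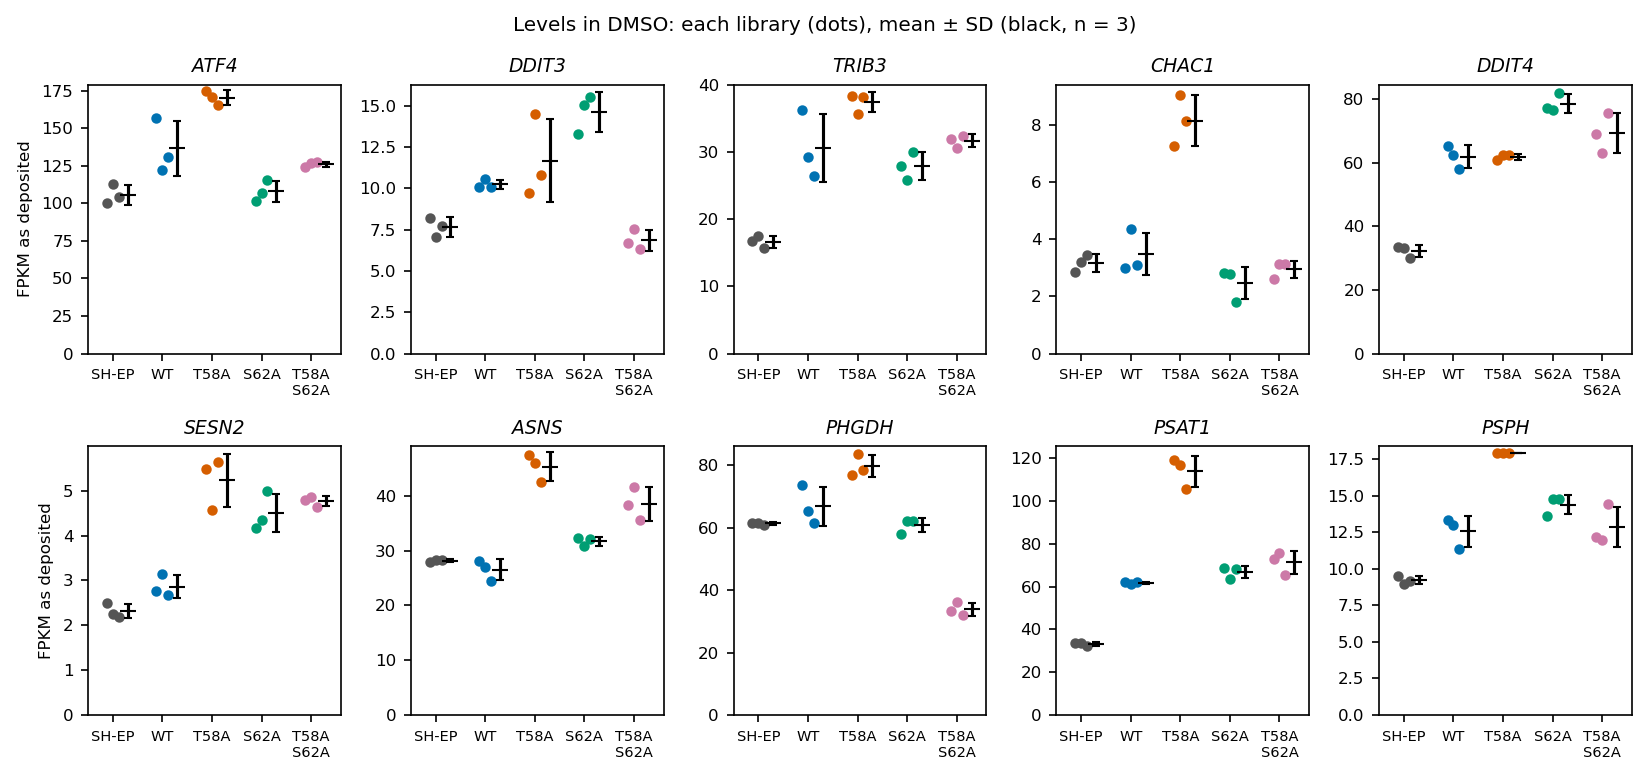
FPKM as deposited in DMSO for each of the 10 genes (y axis, from 0) in the 5 lines (x axis), with a dot for each of the 3 libraries and the mean ± SD in black. T58A has the highest mean of ATF4, TRIB3, CHAC1, SESN2, ASNS, PHGDH, PSAT1, and PSPH, and PHGDH is lowest in T58A S62A, at 32.1 to 36.1 FPKM.

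ATF4 (chromosome 22, 39915700 to 39918688, plus strand) was at 99.9, 113, and 104 FPKM in the SH-EP libraries in DMSO. It was at 157, 122, and 131 FPKM in WT, 175, 171, and 165 in T58A, 102, 107, and 116 in S62A, and 124, 127, and 127 in T58A S62A. The libraries of WT, T58A, and T58A S62A all lay above those of SH-EP, and those of S62A overlapped them. Relative to SH-EP, the log2 change was 0.69 ± 0.07 in T58A (SE, adjusted p = 8.35e-09), 0.36 in WT (8.62e-05), 0.26 in T58A S62A (0.00279), and 0.03 in S62A (0.735). Scaled to the spike-ins, the same changes were -0.27 in T58A (adjusted p = 0.195), -0.90 in WT, -0.59 in T58A S62A, and -1.94 in S62A.

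DDIT3 (CHOP; chromosome 12, 57910371 to 57915520, minus strand), a bZIP factor that ATF4 induces and that promotes cell death in prolonged stress, was at 8.22, 7.06, and 7.72 FPKM in SH-EP. It was at 10.1, 10.6, and 10.1 FPKM in WT, 9.72, 14.5, and 10.8 in T58A, 13.3, 15.1, and 15.6 in S62A, and 6.67, 7.56, and 6.31 in T58A S62A. Every library of WT, T58A, and S62A lay above those of SH-EP, but no line passed the test, and the nearest to the threshold was S62A, with a log2 change of 0.92 ± 0.47 (SE, adjusted p = 0.0995). The SE of DDIT3 is pooled over groups that include a CYC065 library at 0 FPKM. In a fit of only the groups compared, WT (adjusted p = 0.00507), T58A (0.0253), and S62A (0.000509) passed. Without the library at 0, SH-EP CYC065 library c, T58A (0.0294) and S62A (0.00113) passed and WT (0.116) did not. On the spike-in scale all 4 lines had a negative change, from -0.37 in T58A to -1.03 in S62A, and none passed the threshold (lowest adjusted p = 0.0526).

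TRIB3 (chromosome 20, 343479 to 378203, plus strand), a pseudokinase that ATF4 and DDIT3 induce and that feeds back on both, was at 16.7, 17.5, and 15.7 FPKM in SH-EP. It was at 36.2, 29.3, and 26.3 FPKM in WT, 38.3, 35.6, and 38.2 in T58A, 27.9, 25.8, and 29.9 in S62A, and 31.9, 30.6, and 32.4 in T58A S62A. All 12 libraries of the MYCN lines lay above the 3 of SH-EP, and the group means were 1.68-fold (S62A) to 2.25-fold (T58A) that of SH-EP. Averaged over the 4 lines the log2 change was 0.92 ± 0.10 (SE, adjusted p = 1.41e-08), and -0.33 on the spike-in scale (0.0899).

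CHAC1 (chromosome 15, 41245160 to 41248710, plus strand), which degrades glutathione and is a target of ATF4, was low in all lines but T58A. It was at 2.85, 3.21, and 3.46 FPKM in SH-EP, and at 2.998, 4.35, and 3.11 in WT. It was at 2.80, 2.79, and 1.82 FPKM in S62A and at 2.61, 3.13, and 3.12 in T58A S62A. In T58A the libraries were at 7.27, 9.06, and 8.12 FPKM, above every other DMSO library, with a mean 2.57-fold that of SH-EP. Only T58A passed the test against SH-EP, with a log2 change of 1.33 ± 0.21 (SE, adjusted p = 7.54e-06), and T58A also differed from WT, by 1.22 ± 0.21 (0.000137). Scaled to the spike-ins, T58A was not past the threshold against SH-EP (log2 change 0.39, adjusted p = 0.168) but remained above WT (1.53, 0.000753).

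DDIT4 (REDD1; chromosome 10, 74033678 to 74035794, plus strand), which restrains mTORC1 through the TSC complex, was at 33.6, 33.2, and 30.2 FPKM in SH-EP and at 58.1 to 82.1 FPKM in the 12 libraries of the MYCN lines, with no overlap. The means were 1.92-fold (WT), 1.91-fold (T58A), 2.43-fold (S62A), and 2.14-fold (T58A S62A) that of SH-EP. The mean log2 change was 1.06 ± 0.07 (SE, adjusted p = 1.14e-12) as deposited and -0.20 (0.204) on the spike-in scale. SESN2 (chromosome 1, 28586029 to 28609002, plus strand), a leucine sensor of the GATOR2 complex that also restrains mTORC1, was at 2.50, 2.26, and 2.19 FPKM in SH-EP and at 2.77, 3.15, and 2.67 in WT. The 9 libraries of the mutant lines were higher, at 4.17 to 5.64 FPKM. The log2 change against SH-EP was 0.30 ± 0.10 in WT (SE, adjusted p = 0.0147), and it was no longer past the threshold without SH-EP DMSO library c or without WT DMSO library b (highest adjusted p = 0.0884). It was 1.14 for T58A, 0.93 for S62A, and 1.01 for T58A S62A. With spike-in scaling, SESN2 was lower in WT (-0.94, 0.000215) and S62A (-0.99, 8.56e-05) and was not past the threshold in T58A (0.21) or T58A S62A (0.20). The median of all genes was lower still on this scale, at -1.18 in WT and -1.88 in S62A.

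ASNS (chromosome 7, 97480989 to 97501854, minus strand), which makes asparagine from aspartate and glutamine, was at 28.0, 28.2, and 28.4 FPKM in SH-EP and at 28.2, 26.9, and 24.4 in WT, groups that overlapped. It was at 47.5, 46.1, and 42.5 FPKM in T58A, 32.2, 30.8, and 32.2 in S62A, and 38.3, 41.7, and 35.6 in T58A S62A. The log2 change against SH-EP was 0.68 ± 0.07 in T58A (SE, adjusted p = 6.7e-09), 0.45 in T58A S62A (4.18e-06), 0.17 in S62A (0.0365), and -0.09 in WT (0.259). The call in S62A was lost in 5 of the 30 fits that left out 1 library, namely without any of the 3 SH-EP DMSO libraries or without S62A DMSO library a or c (highest adjusted p = 0.0927). The changes on the spike-in scale were -0.28 in T58A (0.170), -0.39 in T58A S62A (0.0611), -1.80 in S62A, and -1.36 in WT.

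The 3 serine synthesis genes did not move together. PSAT1 (chromosome 9, 80912041 to 80945009, plus strand), the aminotransferase of the middle step, was at 33.8, 33.7, and 32.4 FPKM in SH-EP. It was at 61.99, 61.5, and 62.3 FPKM in WT, 119, 117, and 106 in T58A, 68.5, 63.8, and 68.3 in S62A, and 73.0, 75.7, and 65.6 in T58A S62A. No MYCN-line library overlapped SH-EP, and none of the other lines reached T58A, whose mean was 3.43-fold that of SH-EP. Averaged over lines, the log2 change was 1.19 ± 0.05 (SE, adjusted p = 4.95e-16), above 97.2% of the tested genes. It was -0.07 (0.647) on the spike-in scale, where PSAT1 was above SH-EP in T58A (0.81, 0.000185), below it in WT (-0.37, 0.0459) and S62A (-0.96, 8.86e-06), and not past the threshold in T58A S62A (0.26, 0.179).

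PSPH (chromosome 7, 56078744 to 56119297, minus strand), the phosphatase of the last step, was at 9.55, 8.99, and 9.15 FPKM in SH-EP. It was at 13.4, 13.0, and 11.4 FPKM in WT, 17.9, 17.96, and 17.9 in T58A, 13.6, 14.8, and 14.8 in S62A, and 12.2, 11.95, and 14.5 in T58A S62A. The MYCN lines did not overlap SH-EP, and the mean log2 change was 0.63 ± 0.07 (SE, adjusted p = 1.09e-07), and -0.63 on the spike-in scale (0.000322). PHGDH (chromosome 1, 120191034 to 120286841, plus strand), the first and committing enzyme, was at 61.6, 61.6, and 60.8 FPKM in SH-EP, 73.8, 65.2, and 61.5 in WT, and 58.1, 62.2, and 62.2 in S62A. It was higher in T58A, at 77.0, 83.6, and 78.6 FPKM (log2 change 0.38 ± 0.06, adjusted p = 3.25e-06), and lower in T58A S62A, at 33.3, 36.1, and 32.1 FPKM (-0.86 ± 0.06, 2.98e-12). The mean of T58A S62A was 0.551-fold that of SH-EP. PHGDH on the spike-in scale was below SH-EP in each of the 4 lines, from -0.59 in T58A to -1.98 in S62A. The median of all genes on this scale was -0.89 in T58A and -1.88 in S62A. PHGDH changed by -1.15 in WT, against a median of -1.18, and by -1.70 in T58A S62A, against -0.76.

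Against the WT line, 15 of the 30 pairs of gene and mutant line differed in DMSO. These were 7 genes in T58A, against 23.6% of all genes, 4 in S62A, against 24.1%, and 4 in T58A S62A, against 23.7%. In T58A all 7 were higher, namely ATF4 (0.33), ASNS (0.77), CHAC1 (1.22), PHGDH (0.26), PSAT1 (0.88), PSPH (0.51), and SESN2 (0.84, all log2). In S62A, ASNS (0.26), DDIT4 (0.34), and SESN2 (0.63) were higher and ATF4 (-0.33) was lower. In T58A S62A, ASNS (0.54), PSAT1 (0.20), and SESN2 (0.72) were higher and PHGDH (-0.98 ± 0.06, SE, adjusted p = 2.86e-12) was lower. ASNS and SESN2 were therefore higher than in WT in each mutant line as deposited. With spike-in scaling, 11 of the 15 calls held in the same direction, 3 were lost, and 1 turned. ASNS in S62A turned (-0.44, 0.0377), and those lost were SESN2 (-0.05, 0.841) and DDIT4 (-0.36, 0.084) in S62A, which also changed sign, and PHGDH in T58A (0.56, 0.0531). In a fit of only the 2 groups compared, 5 of the 15 calls were lost, those of ATF4 in T58A (0.0848) and S62A (0.0959), ASNS in S62A (0.052), PHGDH in T58A (0.0821), and PSAT1 in T58A S62A (0.104). The PSAT1 call was also lost without WT DMSO library b or without T58A S62A DMSO library a or b (highest adjusted p = 0.0911).

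With CYC065, 6 of the 10 genes were lower in all 5 lines on the spike-in scale, namely ATF4, DDIT3, TRIB3, CHAC1, DDIT4, and PSPH, against 69.8% of all tested genes. DDIT3 left this group with a pseudocount of 0.01, where its change in T58A S62A was not past the threshold (adjusted p = 0.136). None was higher in all 5, against 0.484%. In SH-EP, 6 of the 10 were lower (76.3% of all genes), and in the other lines 9 were, against 93.7% (WT), 84.5% (T58A), 90.2% (S62A), and 76.4% (T58A S62A). Most genes of the table fell as well. SESN2 was the exception among the 10. It was higher in SH-EP (0.89% of all genes), T58A (1.24%), S62A (0.959%), and T58A S62A (1.84%), and in WT, where 0.769% of genes were higher, it was not past the threshold.

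Relative to the rest of the transcriptome, that is on FPKM as deposited, the genes parted. Higher with CYC065 were 5 of the 10 in SH-EP (42.7% of all genes), 5 in S62A (38.8%), 4 each in WT (37%) and T58A S62A (38.6%), and 2 in T58A (38.1%). Lower were 4 in SH-EP (33.5%), 5 in WT (34.2%), 8 in T58A (33.3%), and 2 each in S62A (34.6%) and T58A S62A (34.2%). ATF4 alone was lower in all 5 lines on this scale (24.4% of all genes), and PHGDH and SESN2 were higher in all 5 (28.5%).

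**Figure D2:**
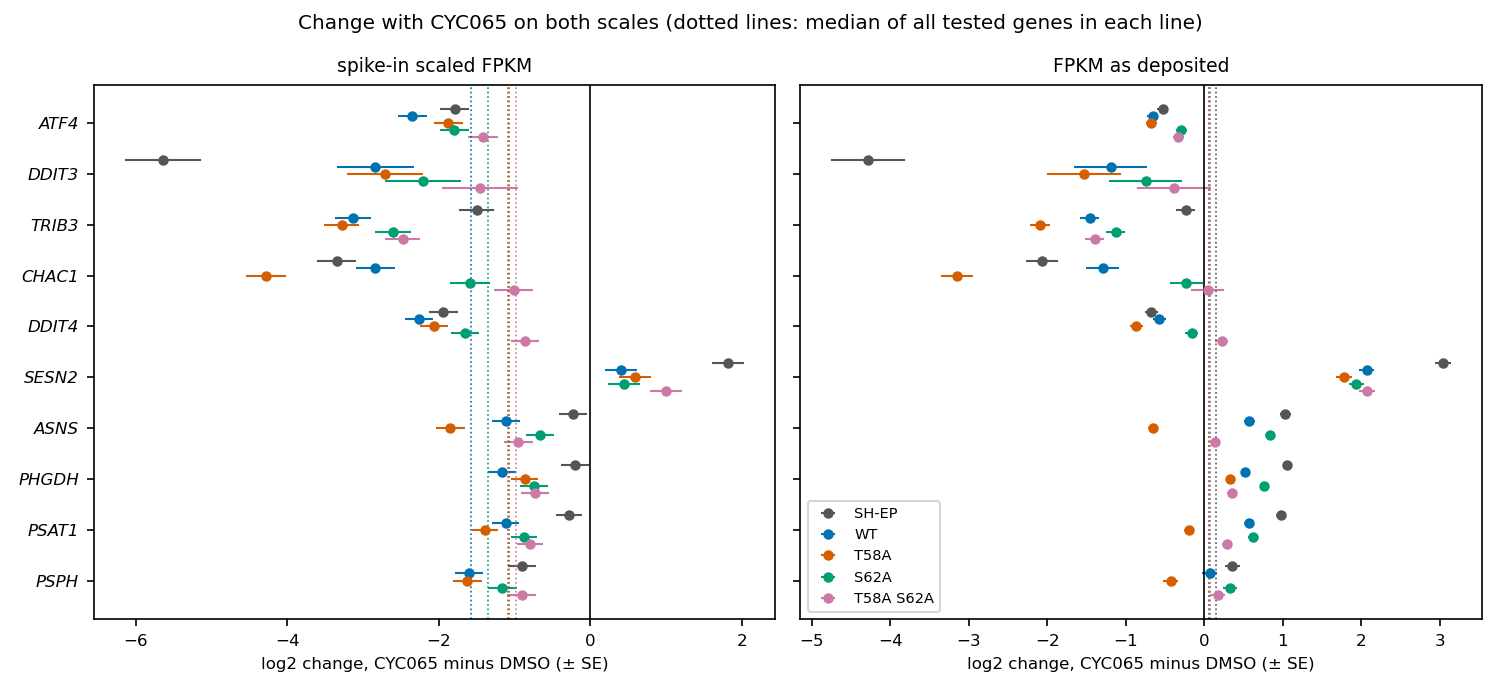
Log2 change with CYC065 (x axis, ± SE) for each gene and line, on spike-in scaled FPKM (left) and on FPKM as deposited (right), with a dotted line at the median of all tested genes in each line. On the left SESN2 lies to the right of 0 and the other genes to the left of it. On the right ATF4 lies left of 0 in every line, and SESN2 and PHGDH right of 0.

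Of these genes, SESN2 had the largest rise. As deposited it went from 2.50, 2.26, and 2.19 FPKM in DMSO to 18.9, 19.5, and 21.1 with CYC065 in SH-EP, and from 2.77, 3.15, and 2.67 to 12.6, 10.6, and 13.9 in WT. It reached 16.5, 18.2, and 19.9 FPKM in T58A, 17.3, 16.6, and 18.6 in S62A, and 19.4, 20.0, and 21.8 in T58A S62A. The treated libraries lay far above the DMSO libraries in every line, and the ratio of the means was 8.56 in SH-EP and 3.48 to 4.32 in the MYCN lines. Scaled to the spike-ins, the SH-EP libraries went from 8.11, 6.94, and 7.26 to 26.8, 28.0, and 24.6, a ratio of 3.56. The log2 change on this scale was 1.82 ± 0.21 in SH-EP (SE, adjusted p = 1.64e-08), 1.01 in T58A S62A (0.000134), 0.60 in T58A (0.0119), 0.45 in S62A (0.0496), and 0.40 in WT (0.0707). The changes in T58A, S62A, and WT are near the threshold. The call in S62A was lost in 20 of the 30 fits without 1 library (highest adjusted p = 0.134). With spike-ins of at least 50 FPKM alone, the S62A change was 0.15 (0.602). The S62A call was also lost without the filter on low genes (0.107), with a filter at 5 FPKM (0.0514), and with a pseudocount of 1 (0.0642) or 0.01 (0.0511). That in T58A was lost without T58A DMSO library b (0.162) and in a fit of only the groups compared (0.119). WT passed without WT DMSO library a, T58A DMSO library b, or WT CYC065 library b (lowest adjusted p = 0.0134).

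DDIT3 had the largest fall, in SH-EP. Scaled to the spike-ins, the SH-EP libraries went from 26.7, 21.7, and 25.6 in DMSO to 0.762, 1.28, and 0 with CYC065. WT went from 16.6, 11.9, and 12.9 to 1.34, 1.54, and 2.93, T58A from 18.6, 17.4, and 21.0 to 2.56, 2.58, and 3.34, S62A from 10.9, 14.1, and 11.2 to 2.17, 2.40, and 3.01, and T58A S62A from 13.5, 13.7, and 9.97 to 4.59, 3.66, and 5.06. Treated and DMSO libraries did not overlap in any line, and the SH-EP libraries with CYC065 were lower than those of every other treated line. The log2 change was -5.65 ± 0.50 in SH-EP (SE, adjusted p = 1.15e-10), where its size depends on the library listed at 0 and on the pseudocount. It was -4.50 without that library, -4.01 with a pseudocount of 1, and -6.84 with a pseudocount of 0.01. For the MYCN lines it was -2.84 (WT), -2.71 (T58A), -2.21 (S62A), and -1.46 (T58A S62A, highest adjusted p = 0.011). As deposited, DDIT3 fell in SH-EP (-4.28), WT (-1.19, 0.026), and T58A (-1.53, 0.00536), and the changes in S62A (-0.75, 0.155) and T58A S62A (-0.38, 0.469) were not past the threshold.

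CHAC1 fell in all 5 lines on the spike-in scale, and the falls differed widely. T58A, the line with the highest level in DMSO, went from 13.9, 10.9, and 15.8 to 0.742, 0.713, and 0.387, which is a 22-fold lower mean. The log2 change was -4.28 ± 0.26 in T58A (SE, adjusted p = 3.02e-13), -3.35 in SH-EP, -2.84 in WT, -1.59 in S62A, and -1.01 in T58A S62A (0.00116). As deposited, CHAC1 with CYC065 was at 2.88, 2.99, and 3.24 FPKM in T58A S62A and at 1.90, 2.38, and 1.92 in S62A. These overlapped the DMSO libraries of the same lines, and the changes (0.04, 0.867 and -0.23, 0.330) were not past the threshold. It fell as deposited in SH-EP (-2.07), WT (-1.29), and T58A (-3.15).

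TRIB3 fell in all 5 lines on the spike-in scale, with the smallest change in SH-EP. The spike-in scaled SH-EP libraries went from 54.4, 53.8, and 52.0 to 22.2, 19.6, and 15.3, and those of T58A from 73.4, 42.7, and 74.2 to 5.26, 6.61, and 6.92. The log2 change was -1.50 ± 0.23 in SH-EP (SE, adjusted p = 2.24e-06) and -2.48 (T58A S62A) to -3.29 (T58A) in the MYCN lines. As deposited, TRIB3 fell in the 4 MYCN lines, from -1.13 in S62A to -2.09 in T58A, and was not past the threshold in SH-EP (-0.24, 0.0817).

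ATF4 fell in all 5 lines. The spike-in scaled SH-EP libraries went from 325, 347, and 346 to 110, 104, and 82.2, and the WT libraries from 259, 137, and 167 to 38.2, 31.1, and 37.5. The log2 change ranged from -1.42 in T58A S62A to -2.35 ± 0.19 in WT (SE, adjusted p = 2.07e-11). As deposited it ranged from -0.29 (S62A, 0.000552) to -0.68 (T58A, 6e-09). DDIT4 also fell in all 5 lines on the spike-in scale, with log2 changes from -0.86 in T58A S62A (0.00018) to -2.26 ± 0.19 in WT (SE, adjusted p = 2.06e-11). As deposited it was lower in SH-EP (-0.68), WT (-0.58), and T58A (-0.87), was not past the threshold in S62A (-0.16, 0.0922), and was higher in T58A S62A (0.22, 0.02), where the libraries were at 69.1, 63.2, and 75.8 FPKM in DMSO and at 84.9, 77.0, and 80.4 with CYC065.

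**Figure D3:**
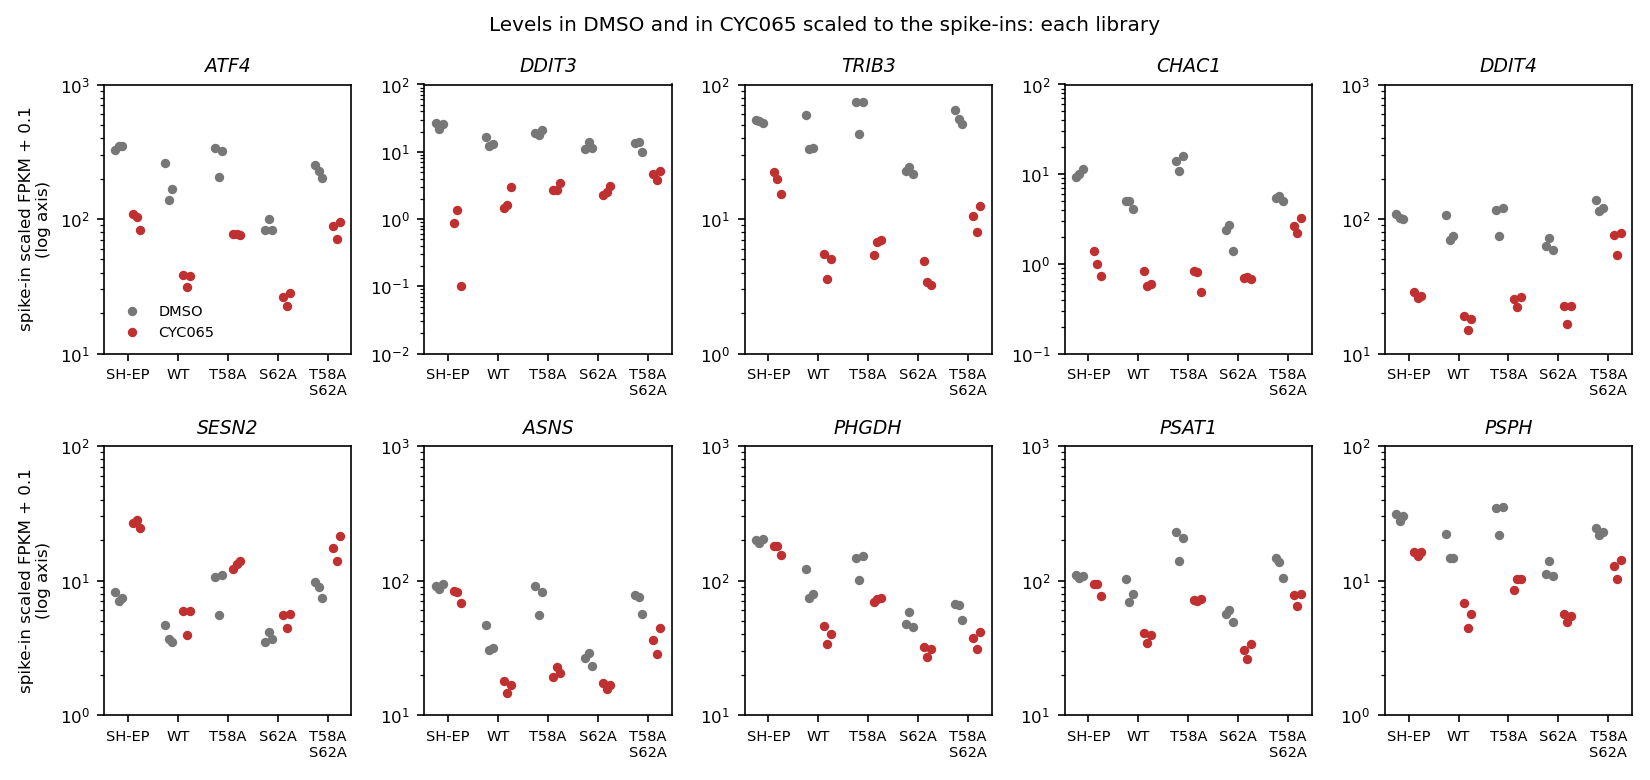
Spike-in scaled FPKM + 0.1 (y axis, log scale) of each gene in the 5 lines (x axis), with a dot for each of 3 libraries in DMSO (gray) and in CYC065 (red). The CYC065 dots of every gene but SESN2 lie below the DMSO dots in every line. The share of all genes that did so was not counted, so this separation is not a trait of these genes. By the test, 6 of the 10 were lower in all 5 lines, against 69.8% of all tested genes. The SESN2 dots of SH-EP rise from 6.94 to 8.11 (DMSO) to 24.6 to 28.0 (CYC065).

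The amino acid synthesis genes had small changes in SH-EP, where only PSPH passed the test. Spike-in scaled, the SH-EP libraries of PHGDH went from 200, 190, and 202 to 181, 180, and 154, those of PSAT1 from 110, 104, and 107 to 94.4, 94.7, and 76.0, and those of ASNS from 91.0, 86.9, and 94.1 to 83.1, 82.4, and 67.7. Treated libraries lay below the DMSO libraries for each, but the changes of -0.20 (adjusted p = 0.304), -0.28 (0.139), and -0.23 (0.266) did not pass the test. The PSAT1 change in SH-EP did pass in a fit of only the groups compared (0.0375). In the MYCN lines all 3 genes passed the main test. The log2 changes ranged from -0.73 (T58A S62A) to -1.17 (WT) for PHGDH, from -0.79 (T58A S62A) to -1.39 (T58A) for PSAT1, and from -0.66 (S62A) to -1.85 (T58A) for ASNS. PSPH fell in all 5 lines, from -0.90 in SH-EP (0.000111) to -1.62 in T58A (1.88e-08).

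As deposited, PHGDH rose in all 5 lines, PSAT1 in 4, ASNS in 3, and PSPH in 2. In SH-EP, PHGDH went from 61.6, 61.6, and 60.8 FPKM to 127, 125, and 132 (ratio of means 2.09), ASNS from 28.0, 28.2, and 28.4 to 58.4, 57.4, and 57.9 (2.05), and PSAT1 from 33.8, 33.7, and 32.4 to 66.3, 65.9, and 65.0 (1.98). T58A was the line that departed. There ASNS fell from 47.5, 46.1, and 42.5 FPKM to 26.1, 31.3, and 29.3 (log2 change -0.65, adjusted p = 6.92e-09), PSAT1 fell (-0.19, 0.00846), and PSPH fell (-0.43, 0.000285), whereas PHGDH rose (0.33, 9.77e-06). ASNS was not past the threshold in T58A S62A (0.13, 0.0739). PSPH rose in SH-EP (0.35, 0.00162) and S62A (0.33, 0.0033) and was not past the threshold in WT (0.07, 0.519) or T58A S62A (0.17, 0.104).

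Whether the response to CYC065 differed between each MYCN line and SH-EP was tested with the interaction of line and treatment. On the spike-in scale, 17 of the 40 pairs of gene and line differed. These were 6 genes in WT, against 16% of all genes, 5 in T58A, against 2.66%, and 3 each in S62A, against 4.83%, and T58A S62A, against 5.46%. As deposited, they were 6 (28.6%), 8 (23.9%), 7 (24.6%), and 8 (25.4%). DDIT3 fell less in each of the 4 MYCN lines than in SH-EP, by 2.81 ± 0.71 in WT (SE, adjusted p = 0.0245) to 4.19 ± 0.71 in T58A S62A (0.000306) on the log2 scale. Without the SH-EP library at 0 these 2 differences were 1.66 (0.00981) and 3.04 (6.75e-06), and all 4 lines were still past the threshold. In a fit of only the groups compared, WT (adjusted p = 0.0765), T58A (0.315), and S62A (0.0574) were not past it and T58A S62A was (0.0496). The WT and T58A calls were also lost without the filter on low genes (0.0658 and 0.0692), the T58A call with a pseudocount of 0.01 (0.103), and the WT call in 5 and the T58A call in 3 of the 30 fits without 1 library (highest adjusted p = 0.0623 and 0.054). The libraries whose loss ended a call were SH-EP DMSO libraries a and c for both lines, SH-EP DMSO library b and WT CYC065 libraries b and c for WT, and T58A CYC065 library c for T58A. CHAC1 fell less than in SH-EP in S62A (1.76, 0.0046) and T58A S62A (2.34, 0.000158), and DDIT4 in T58A S62A (1.08, 0.0113).

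The other differences had the opposite sign. TRIB3 fell further than in SH-EP in WT (-1.63 ± 0.33, SE, adjusted p = 0.00677) and T58A (-1.79 ± 0.33, 0.00234), ASNS in WT (-0.89, 0.0376) and T58A (-1.62, 0.000856), PSAT1 in WT (-0.84, 0.037) and T58A (-1.11, 0.00996), and PHGDH in WT (-0.96, 0.0297). The TRIB3 differences in S62A (-1.11, 0.0513) and T58A S62A (-0.98, 0.0944) were not past the threshold. As deposited both passed (0.000489 and 2.77e-05). SESN2 rose less than in SH-EP in WT (-1.42, 0.00952), T58A (-1.22, 0.021), and S62A (-1.37 ± 0.30, 0.00575). No difference passed for ATF4 (adjusted p = 0.124 to 1 over the 4 lines) or PSPH (0.0615 to 1). The median difference of all genes in WT was -0.51 on this scale, and the WT calls of ASNS, PHGDH, and PSAT1 were each lost in 8 of the 30 fits without 1 library, among them those without any of the 3 SH-EP DMSO libraries (highest adjusted p = 0.154, 0.114, and 0.139). The SESN2 call in T58A was lost in 5 of the 30 fits, those without SH-EP DMSO library b or c, T58A DMSO library a or c, or T58A CYC065 library a (highest adjusted p = 0.0624). In a fit of only the groups compared, SESN2 (0.154) and PSAT1 (0.076) in T58A and PHGDH in WT (0.0506) were not past the threshold. With spike-ins of at least 50 FPKM alone, 7 of the 17 differences remained.

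**Figure D4:**
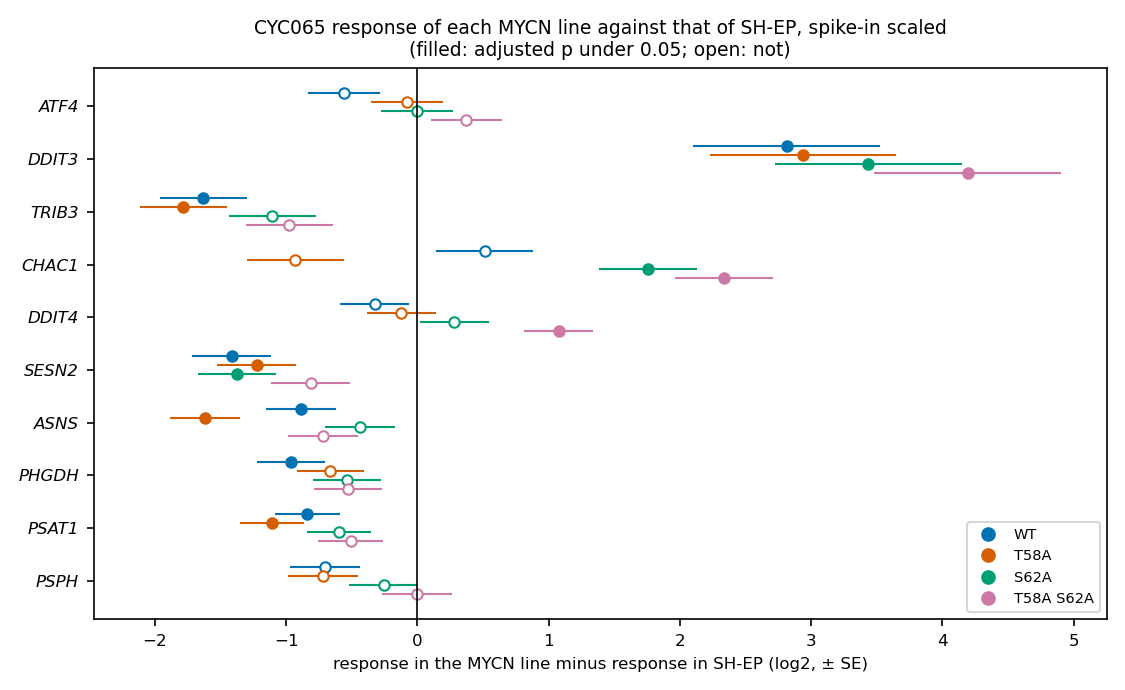
Response to CYC065 in each MYCN line minus that in SH-EP (x axis, log2 on the spike-in scale, ± SE) for each gene, filled where the adjusted p was under 0.05. DDIT3 lies to the right in all 4 lines, at 2.81 to 4.19. TRIB3, SESN2, ASNS, PHGDH, PSAT1, and PSPH lie to the left in all 4, but many of their points are open. No point of PSPH is filled, and that of T58A S62A is at -0.0044.

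The neighboring genes of the pathway were summarized by lists, with the mean contrast over lines. In DMSO as deposited, 34.6% of all genes were higher and 26.3% lower in the MYCN lines than they were in SH-EP. Of 26 other tested ATF4 target genes, 18 were higher and 2 lower (median log2 change 0.41, against 0.06 for all genes). The largest rises were those of GPT2, an alanine aminotransferase (1.13), and ATF3, a stress-induced bZIP factor (1.10), and those lower were GDF15 (-0.38) and the amino acid transporter SLC38A2 (-0.17). Of 12 aminoacyl-tRNA synthetases, 9 were higher and none lower (median 0.22), with YARS (0.50) and TARS (0.48) first. Of 13 genes of one-carbon and glycine metabolism next to serine synthesis, 9 were higher and 2 lower (median 0.37), with the folate enzymes MTHFD2 (0.91) and MTHFD1L (0.78) first among the rises and SDSL (-1.17) and SRR (-0.90) lower. Of 8 ATF4 partners and related bZIP factors, 5 were higher and none lower (median 0.47), with BATF3 (1.29) and ATF3 first.

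The eIF2 kinases, subunits of eIF2 and of its exchange factor eIF2B, and phosphatase subunits moved less, with 6 of 13 higher and 1 lower (median 0.14). PPP1R15A, the stress-induced phosphatase subunit that ends the response (0.68), and EIF2B3 (0.65) were higher, and EIF2AK3, the kinase PERK (-0.52), was lower. The ATF6 and XBP1 arms of the unfolded protein response went the other way, with 1 of 16 higher (SDF2L1, 0.44) and 12 lower (median -0.29), led by CRELD2 (-1.11) and CALR (-0.55). Of 15 p53 target genes, 8 were higher and 3 lower, of 15 hypoxia-induced genes 7 and 4, and of 16 sestrin and mTORC1 amino acid sensing genes 4 and 6, with SESN3 (-2.03) the most reduced and SEH1L (0.55) and SESN1 (0.43) higher. On the spike-in scale, where 91.4% of all genes were lower and 1.09% higher, no gene of any list was higher.

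With CYC065 on the spike-in scale, 94.4% of all genes were lower in the mean over lines and 1.57% higher. All tested genes were lower in the lists of eIF2 and its regulators (13), aminoacyl-tRNA synthetases (12), one-carbon and glycine steps (13), the ATF6 and XBP1 arms (16), and hypoxia-induced genes (15). Of the other ATF4 targets, ATF3 (log2 change 2.24 ± 0.10, SE, adjusted p = 3.45e-18) and GDF15, a secreted stress hormone (2.12, 4.13e-18), were higher and 24 of 26 lower, led by HERPUD1 (-3.33) and KLHL24 (-2.99). Of the ATF4 partners, ATF3 alone was higher and 7 of 8 were lower, with CEBPB (-2.70) and NFE2L2 (-2.18) the most reduced. Of the p53 target genes, 8 of 15 were higher and 7 lower (median 0.43, against -1.20 for all genes), with GDF15 and BTG2 (2.08) first, and XPC (-2.73) and PLK3 (-1.62) the most reduced. GDF15 is on both lists, and SESN2 is a known target of p53 as well as of ATF4. Whether either factor bears on the rise of SESN2 or GDF15 was not tested. Of the 16 sestrin and mTORC1 sensing genes, SESN1, the p53-induced paralog of SESN2, was higher (0.67, 8.83e-08), and 15 were lower, led by MIOS (-3.47) and WDR24 (-2.52). As deposited, 46.9% of all genes were higher and 39.8% lower, and the counts higher and lower were 11 and 2 of 13 for the one-carbon and glycine list, 10 and 1 of 12 for the synthetases, 13 and 3 of 16 for the ATF6 and XBP1 arms, and 11 and 2 of 15 for the p53 targets. They were 9 and 4 of 13 for eIF2 and its regulators, 9 and 6 of 15 for the hypoxia-induced genes, 12 and 11 of 26 for the other ATF4 targets, 2 and 4 of 8 for the ATF4 partners, and 5 and 9 of 16 for the sestrin and mTORC1 sensing genes.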

How the data were processed

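RNA-Seq of SH-EP and its 4 MYCN derivatives, in DMSO or 1 μM CYC065 for 6 hours, gave 30 libraries. Groups follow the labels. The table's columns name line and treatment and end in a number from 0 to 2, whereas the labels number replicates from 1 to 3. Which number stands for which replicate is not stated, so the main fits pair no libraries. Of its columns, 0 belonged to other samples.

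The authors added ERCC spike-ins in proportion to cell number and made strand-specific libraries from poly(A) RNA. They aligned the reads with HISAT2 (hg19/GRCh37) and used Cufflinks to compute FPKM. The annotation is not given in the sources used here. The table lists 92 spike-ins, but its deposited FPKM were not scaled to them. It holds no read counts, so depth is known only relative to other libraries, and no counting interval can be given. A value of 0 can be a failed estimate. Reads of near-identical gene copies may be split in a way that the table does not show.

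For the spike-in scale, libraries were rescaled until the 55 spike-ins that averaged 1 FPKM or more had the same median log2 level everywhere. The 11575 genes that averaged 1 FPKM or more were tested on log2(FPKM + 0.1) with limma 3.58.1 in R 4.3.3 (lmFit, eBayes with trend), in 1 fit over 10 groups, with a Benjamini-Hochberg adjusted p under 0.05 over all genes tested as the threshold. With 3 libraries a group, exact permutation tests cannot reach that threshold and were not used. Correlations between libraries of a group were 0.925 to 0.959, and 0 pairs of libraries were identical. The scripts were tested on simulated data. Positions are those of GENCODE lifted to GRCh37, and promoter sequences those of RefSeq (GRCh38.p14).

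The 10 genes and the lists were chosen with earlier results of these data known. All 10 are named, and of each list at most 2 rises and 2 falls, the largest past the threshold in the mean contrast. Alternatives tried were a pseudocount of 1 or 0.01, a filter at 5 FPKM or none, the other scaling, libraries centred on their median, spike-ins of at least 50 FPKM, robust empirical Bayes, a change of at least 1.5-fold, fits of only the groups compared, and leaving out each library in turn. A replicate block on the column number was added after the data were seen.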

Additional observations from a re-analysis of the deposited data

Results flagged for a closer look

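The response to CYC065 differed from that of SH-EP, by a test of the interaction on the spike-in scale, in 17 pairs of gene and MYCN line (log2, response in the line minus response in SH-EP). DDIT3 fell less in all 4 lines, by 2.81 (WT), 2.94 (T58A), 3.44 (S62A), and 4.19 (T58A S62A), and the sizes rest in part on an SH-EP library listed at 0 FPKM. In a fit of only the groups compared, the DDIT3 differences in WT (adjusted p = 0.0765), T58A (0.315), and S62A (0.0574) did not pass, nor did those in WT (0.0658) and T58A (0.0692) without the filter on low genes. CHAC1 fell less in S62A (1.76) and T58A S62A (2.34), and DDIT4 in T58A S62A (1.08). TRIB3 fell further in WT (-1.63) and T58A (-1.79), ASNS in WT (-0.89) and T58A (-1.62), PSAT1 in WT (-0.84) and T58A (-1.11), and PHGDH in WT (-0.96). SESN2 rose less in WT (-1.42), T58A (-1.22), and S62A (-1.37). Of all tested genes, 2.66% (T58A) to 16% (WT) differed by this test. All 17 differences had the same sign on FPKM as deposited, from the same libraries, and passed the test there. On that scale 23.9% (T58A) to 28.6% (WT) of all genes passed. With spike-ins of at least 50 FPKM alone, 7 of the 17 passed and 10 did not. Those lost were all 6 in WT (adjusted p = 0.0744 to 0.147) and 4 others. These were PSAT1 (0.239) and SESN2 (0.215) in T58A, CHAC1 in S62A (0.0895), and DDIT4 in T58A S62A (0.519).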

How the results depend on the processing

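The choice of scale decided most directions. With the other scaling (spike-in for lines, as deposited for CYC065), 0 genes were higher than SH-EP in all 4 MYCN lines instead of 5 and 1 was lower instead of 0, with CYC065 1 was lower in all 5 lines instead of 6 and 2 were higher instead of 0, and 29 of 40 responses differed from SH-EP instead of 17. The mean change against SH-EP then became -0.93 for ATF4, -0.81 for DDIT3, -0.96 for ASNS, -0.33 for TRIB3, -0.99 for CHAC1, -0.20 for DDIT4, -0.066 for PSAT1, -0.63 for PSPH, and -0.38 for SESN2, and the mean change with CYC065 became 0.39 for ASNS, 0.61 for PHGDH, 0.46 for PSAT1, and 0.10 for PSPH. With libraries centred on their median, these were 0.55, 0.77, 0.62, and 0.26, with 0 genes lower and 2 higher in all 5 lines and 31 responses differing. The ATF4 mean difference in response was 0.038 as deposited, 0.07 with centring, and -0.19 to 0.014 without 1 library. With spike-ins of at least 50 FPKM, 7 responses differed. Requiring a 1.5-fold change left 3 genes higher than SH-EP in all lines and 7 pairs different from WT. Without 1 library, the responses that differed numbered 11 to 22, lowest without SH-EP DMSO library c, and the genes higher with CYC065 in all 5 lines 0 to 1, with 1 without WT DMSO library a or WT CYC065 library b. The cause was not tested. Of the mean changes of single genes under all alternatives, 1117 values kept direction and side of the threshold, 29 fell below it, 21 rose past it, and 20 changed sign.

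The replicate numbers of the labels could not be matched to the columns with certainty, so a replicate block was fitted on the number in the column names, an alternative chosen after seeing the data. With it, 5 genes were higher and 0 lower than SH-EP in all 4 lines, 6 were lower and 0 higher with CYC065 in all 5, 15 pairs differed from WT, and 20 responses differed from SH-EP instead of 17, with none of the 17 lost. Deviations from the group means of libraries with the same number were correlated at -0.13 to 0.16 over 135 pairs of libraries (median 0.00, 8 pairs over 0.1), and 13 of 30 libraries were closest to their own number. Depth limits the low values of DDIT3 and CHAC1 with CYC065, where libraries were shallowest.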
